A study of Rattus norvegicus and Heterocephalus glaber with 6 samples.

Results

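Mcm2 to Mcm7, the 6 subunits of the helicase that licenses replication origins, were read in hypoxic rodent liver together with Pcna and with 3 genes of dividing cells, Mki67, Top2a and Ccnb1. These 10 genes were taken by symbol, ignoring case. All 10 had a row among the 22549 rows of each rat table, and 1 of them, MCM2, had a row among the 734 rows of each naked mole rat table used here. Mcm2 to Mcm7 are called the licensing genes below, and Mki67, Top2a and Ccnb1 the mitotic genes.

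The libraries were made from polyadenylated liver RNA of rats (3 libraries) and of naked mole rats (3 libraries), a subterranean rodent. Both species had spent 8 hours in 8% oxygen. Samples in normal air, to which the design refers, were not analysed here, so no effect of oxygen on these genes was measured and the only contrast between groups was that of species. The labels used here name no strain, age or sex and do not say whether each library came from a different animal, so p-values measure the spread between these libraries, which may in part be technical.

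Before S phase the origin recognition complex, Cdc6 and Cdt1 load MCM rings as inactive double hexamers on DNA, and Cdc45 and the GINS proteins later turn each ring into a working helicase. Pcna is the sliding clamp that holds polymerases on the template and also serves DNA repair, so it is made outside S phase too. Mki67 coats mitotic chromosomes, Top2a untangles sister chromatids and Ccnb1 is the cyclin that drives entry into mitosis. Hepatocytes of the adult liver are mostly quiescent and re-enter the cycle after injury or partial hepatectomy. In textbook accounts, genes of DNA replication are controlled by E2F factors and genes of mitosis through CHR elements and CCAAT boxes, bound by the DREAM, MuvB and NF-Y complexes.

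The promoter windows of the licensing genes held E2F words and those of the mitotic genes did not, in counts that were not tested. The windows, from RefSeq (rat build GRCr8), run from 250 bases before the annotated start site to 50 after it and were matched for 9 of the 10 genes; Mcm4 had no entry. An E2F match was any of TTTCCCGC, TTTGGCGC, TTTCGCGC and TTTGCCGC, a CHR match was TTTGAA or TTCGAA, and a CCAAT match was CCAAT, each on either strand. The stretches below show the match nearest the start site among those that begin upstream of it, 5′ to 3′ along the gene. In the licensing genes the capitals mark E2F matches.
Mcm2, chr4:122918095-122918154, minus strand: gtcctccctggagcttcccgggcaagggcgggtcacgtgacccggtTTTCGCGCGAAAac
Mcm3, chr9:30733745-30733804, minus strand: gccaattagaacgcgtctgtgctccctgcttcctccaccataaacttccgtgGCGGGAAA
Mcm5, chr19:13488753-13488812, plus strand: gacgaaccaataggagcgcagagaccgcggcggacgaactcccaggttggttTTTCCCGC
Mcm6, chr13:42404454-42404513, minus strand: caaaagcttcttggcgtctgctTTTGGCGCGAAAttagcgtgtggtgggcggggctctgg
Mcm7, chr12:22163197-22163256, minus strand: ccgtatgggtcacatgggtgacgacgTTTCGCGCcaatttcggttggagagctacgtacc

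In the mitotic genes the capitals mark CHR and CCAAT matches instead, since none of the E2F words was in their windows.
Mki67, chr1:199952660-199952719, minus strand: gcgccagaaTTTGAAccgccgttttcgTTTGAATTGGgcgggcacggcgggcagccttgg
Top2a, chr10:84473094-84473153, minus strand: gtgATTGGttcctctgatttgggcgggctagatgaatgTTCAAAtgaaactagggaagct
Ccnb1, chr2:33655243-33655302, minus strand: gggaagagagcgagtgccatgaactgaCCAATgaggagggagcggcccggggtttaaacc

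All 5 licensing promoters held an E2F match, with 2 or 3 matches each, against 0 of 3 mitotic promoters, 0 for Pcna and 2.14% of all 33469 promoters of this length. Some matches overlap: in Mcm2 and Mcm6 the 2 matches share bases, as do 2 of the 3 in Mcm5. In Mki67 the second CHR match shares bases with a CCAAT match. CHR matches were in 2 of 3 mitotic promoters (Mki67 and Top2a), in 2 of 5 licensing promoters (Mcm2 and Mcm7) and in 19.7% of all promoters. CCAAT matches were in 3 of 3 mitotic and 4 of 5 licensing promoters, against 37.5% of all. A match is a string of letters in this window and was not tested for binding.

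Longer lists of genes that carry out these steps were counted in the same way without the 10 genes. Of origin recognition and MCM loading genes, 4 of 6 matched promoters held an E2F word (Cdt1, Gmnn, Orc3 and Orc5) and 0 a CHR word. Of the genes of mitosis, 1 of 26 held an E2F word (Cdk1) and 20 held a CHR word, among them Plk1, Cdc20 and Ccnb2. The other lists used below held both kinds of word in varying shares. E2F words ran from 0 of 12 growth arrest promoters to 2 of 3 of other MCM-family genes, with 6 of 13 for helicase activation and 8 of 23 for the replication fork. CHR words ran from 0 of 3 of other MCM-family genes to 7 of 14 of the E2F, RB and DREAM group. Among the 10920 promoters matched to a symbol of the rat tables, 3.19% held an E2F word and 14.99% a CHR word.

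**Figure D1:**
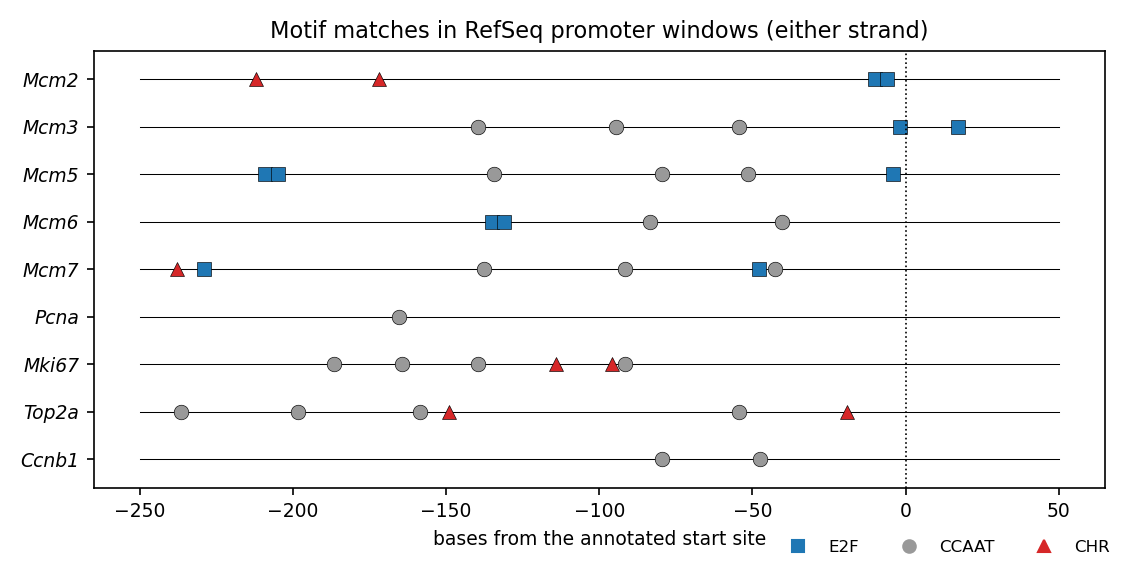
Positions of E2F (squares), CCAAT (circles) and CHR (triangles) matches in the promoter windows of 9 genes, in bases from the annotated start site, which is at 0. All 5 licensing promoters carry E2F matches, 2 or 3 each, and the promoters of Pcna, Mki67, Top2a and Ccnb1 carry none.

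In the rat livers the licensing genes stood above the mitotic genes in every library, and Pcna stood above both. Levels are given in FPKM, a fragment count per transcript length and library size, so that genes of different length can be set side by side. In bulk tissue, fewer cells of a type and less RNA per cell cannot be told apart. Of the 10 genes, 4 had a mean of at least 1 FPKM (Pcna, Mcm7, Mcm2 and Mcm4), against a background of 44.3% of rat rows at that level. The means covered a 122-fold range, from 8.91 for Pcna to 0.0729 for Top2a. None of the 10 rows overlapped another row of the rat tables.

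Pcna, the clamp, was at 8.95, 9.16 and 8.61 FPKM in rat 1, rat 2 and rat 3, or 8.91 ± 0.280 (SD, n = 3). It was the steadiest of the 10, the highest rat being 1.06 times the lowest, and 81.3% of rat rows had a lower mean. Mammalian genomes hold processed copies of Pcna, which can share its reads.

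Among the licensing genes Mcm7 was highest, at 5.02, 5.58 and 5.84 FPKM (5.48 ± 0.420, SD, n = 3). Mcm2 followed at 2.07, 1.95 and 2.46 (2.16 ± 0.268). Mcm4 was at 1.68, 1.45 and 1.49 (1.54 ± 0.124). In none of these 3 did a rat reach into the range of its neighbour in the order.

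The other licensing genes were all below 1 FPKM. Mcm6 was at 0.328, 0.497 and 0.394 FPKM (0.406 ± 0.0851, SD, n = 3). Mcm3 was at 0.164, 0.401 and 0.357 (0.307 ± 0.126). Mcm5 was at 0.213, 0.424 and 0.188 (0.275 ± 0.129). Their ranges overlapped, so Mcm6, Mcm3 and Mcm5 did not separate beyond the spread between rats. The lowest Mcm4 value, 1.45, was above the highest of the 3, 0.497 for Mcm6 in rat 2.

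The 6 subunits act as one ring in equal numbers, as a matter of textbook knowledge, yet their transcripts covered a 19.9-fold range of means, from Mcm7 to Mcm5. Mcm2, Mcm4 and Mcm7 together made up 92.6%, 87.2% and 91.2% of the summed licensing FPKM in rat 1, rat 2 and rat 3. Mcm3, Mcm5 and Mcm6 made up the remaining 7.44%, 12.8% and 8.75%. The E2F matches did not follow this order: Mcm7 with the highest level and Mcm3 with one of the lowest both had 2, and Mcm5 with the lowest mean had 3.

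The mitotic genes were the lowest of the 10 and did not separate from each other. Ccnb1 was at 0.0381, 0.160 and 0.0749 FPKM (0.0909 ± 0.0623, SD, n = 3). Mki67 was at 0.0407, 0.0942 and 0.135 (0.0899 ± 0.0472). Top2a was at 0.0643, 0.112 and 0.0421 (0.0729 ± 0.0359). Each value was above 0, which was so for 61.2% of rat rows in all 3 libraries, and each gene ranked above 39.6% to 40.7% of rat rows by its mean.

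**Figure D2:**
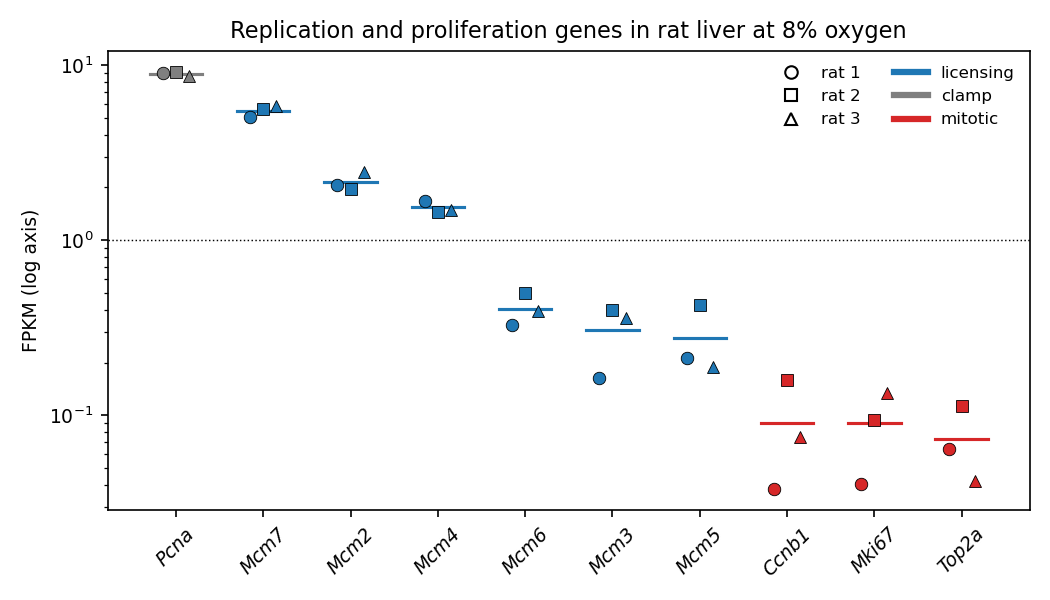
FPKM of the 10 genes in 3 rat libraries, on a log axis, with 1 symbol per rat, a bar at the mean and a dotted line at 1 FPKM. Licensing genes are blue, Pcna is grey and mitotic genes are red; every licensing point lies above every mitotic point.

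Set against each other, each of the 6 licensing genes exceeded each of the 3 mitotic genes in each rat, which is 18 of 18 gene pairs in every library. The margin was narrow at the edge: the lowest licensing value in any rat, 0.164 FPKM for Mcm3 in rat 1, was just above the highest mitotic value, 0.160 for Ccnb1 in rat 2. All 6 licensing genes were above 0.160 FPKM in every rat, as were 53.1% of all rat rows. The median licensing level was 1.004, 0.972 and 0.941 FPKM in rat 1, rat 2 and rat 3, and the median mitotic level 0.0407, 0.112 and 0.0749. The ratio of these medians was 24.7, 8.65 and 12.6, so it moved with the mitotic genes while the licensing median stayed within a narrow band. That median lies midway between Mcm4 and Mcm6, which moved in opposite directions between the rats. It does not show that each licensing gene was steady: Mcm3 and Mcm5 differed 2.45-fold and 2.25-fold.

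On the log2(FPKM + 1) scale the licensing median exceeded the mitotic median by 0.86, 0.78 and 0.79 in the 3 rats, or 0.81 ± 0.041 (SD, n = 3). This is a description with no test, because the 10 genes are not replicates and the rats form a single group. That scale compresses values under 1 FPKM, and with a pseudocount of 0.01 in place of 1 the mean difference was 3.30. With the longer lists the order held in a smaller share of pairs: over 14 loading genes and 34 genes of mitosis, the loading gene was the higher in 82.8%, 82.4% and 85.7% of 476 pairs. These lists include the licensing and mitotic genes themselves, so the 18 pairs above are counted again.

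The precision of these values fell steeply with level. The authors' deposited table gives confidence bounds for each value. All 30 values of the 10 genes lay inside their bounds, which is no check of them, since the bounds belong to the same estimates. In the authors' deposited table the bounds of Ccnb1 reached down to 0 in rat 1 and rat 3, with upper bounds of 0.101 and 0.165 FPKM. Those of Mcm3 in rat 1 ran from 0.0685 to 0.257 in the authors' deposited table and those of Ccnb1 in rat 2 from 0.0353 to 0.283, so the narrow margin between them lies within these bounds. Within each library too, bounds of Mcm3 or Mcm5 in the authors' deposited table overlapped those of a mitotic gene. In rat 1 the upper bound of Top2a was 0.114. In rat 2 the lower bound of Mcm3 was 0.234. In rat 3 Mcm5 reached down to 0.0778 and Mki67 up to 0.183. The bounds of Mcm2, Mcm4, Mcm6 and Mcm7 overlapped none of the mitotic genes in the same library.

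The steps between low values also point to few fragments behind Ccnb1 and Top2a among the mitotic genes. Ratios of values under 0.1 FPKM pile up where 2 libraries have the same number of fragments, which puts the depth of rat 1 at 1.05 relative to rat 2 and at 0.983 relative to rat 3. After this correction the Ccnb1 values of rat 1, rat 2 and rat 3 stood at 1, 3.999 and 2.002 times the lowest, and those of Top2a at 1.501, 2.503 and 1. Such simple ratios are what small whole numbers of fragments give; the numbers themselves were not recovered, since FPKM holds no counts. Mki67, at 1, 2.21 and 3.37, and Mcm3, at 1, 2.33 and 2.22, showed no steps as simple as these, though larger whole numbers of fragments can give such ratios too.

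The spread between rats can be set against that of other genes at the same level. For the mitotic genes the SD was 49.3% to 68.6% of the mean, against a median of 73.4% over 794 rat rows with a mean of 0.05 to 0.1 FPKM. For Mcm6, Mcm3 and Mcm5 it was 21.0% to 47.1%, against 32.6% over 1273 rows from 0.2 to 0.5 FPKM. For Pcna, Mcm7, Mcm2 and Mcm4 it was 3.14% to 12.4%, against 12.8% over 6086 rows from 1 to 10 FPKM.

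Ratios of the highest to the lowest rat ran from 1.06 for Pcna to 1.26 for Mcm2 among the 4 genes above 1 FPKM, and from 1.51 for Mcm6 to 4.19 for Ccnb1 among the 6 below it. Rat 2 was highest for 6 of the 10 genes, among them Mcm3, Mcm5, Mcm6, Ccnb1 and Top2a, and rat 1 was lowest for 5. Over 13807 rat rows the median-ratio factors of rat 1, rat 2 and rat 3 were 0.957, 1.04 and 1.01. Rat 2 thus ran high and rat 1 low in general, and the share of all rows in this order was not counted. Without rat 1 the ratio for Mki67 fell from 3.32 to 1.43 and that for Mcm3 from 2.45 to 1.12. Without rat 2 the ratio for Mcm5 was 1.13 in place of 2.25, and that for Top2a 1.53 in place of 2.67 (1.75 without rat 3). For Ccnb1 it fell from 4.19 to 2.13 without rat 1 and to 1.97 without rat 2. With 3 libraries, leaving out the highest or the lowest lowers such a ratio for any gene, so a fall in itself is not particular to these 5 genes.

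**Figure D3:**
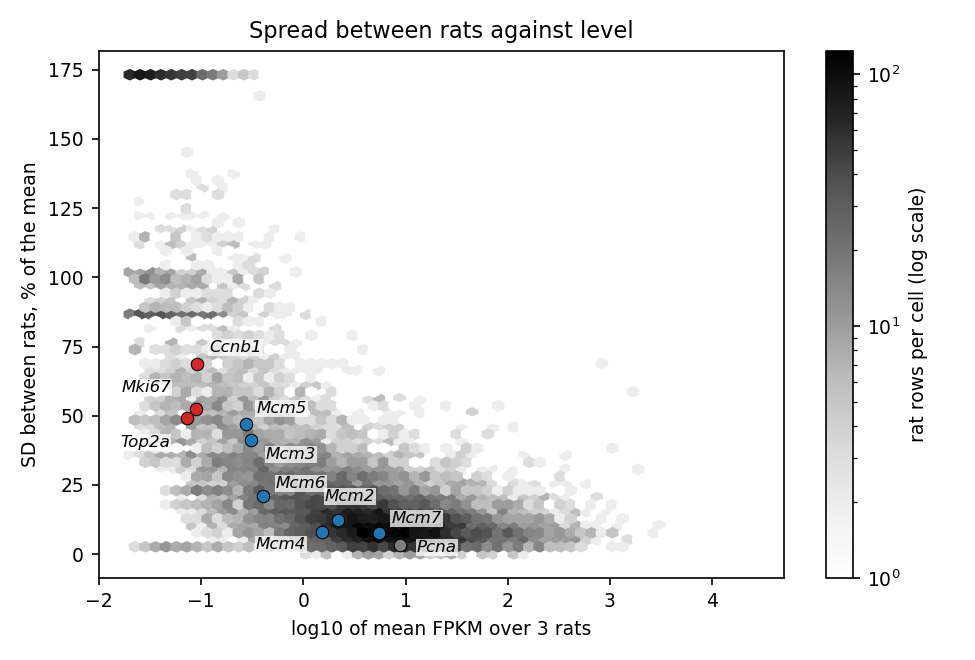
SD between 3 rats as a percentage of the mean, against log10 of the mean FPKM, for rat rows above 0.02 FPKM (grey cells, darker where more rows lie) and the 10 genes (blue licensing, grey Pcna, red mitotic). The 10 genes lie within the cloud of other rows, the mitotic genes at 49.3% to 68.6% and Pcna at 3.14%.

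Summed markers of blood cells and of some other cell types differed between the same rats. The summed erythroid markers were at 60.2, 364 and 355 FPKM in rat 1, rat 2 and rat 3 (5 of 8 listed genes had a row, led by Hbb), and the neutrophil markers at 2.39, 8.00 and 10.7 (6 of 6, with Elane and Ltf at 0 in every rat). The B or plasma cell markers summed to 1.07, 2.06 and 2.51 (5 of 6) and the T or NK cell list to 8.33, 11.2 and 15.1 (7 of 8). Of the latter, Cd4 alone gave 6.14, 8.30 and 12.0. Every other gene of that list was under 1 FPKM in every rat, Cd3e being at 0.292, 0.428 and 0.403. That sum therefore mostly followed Cd4 and is no measure of T or NK cells as such. Kupffer cell or macrophage markers summed to 301, 308 and 410 and cholangiocyte markers to 11.9, 13.0 and 17.5. In the T or NK list, Cd8a and Nkg7 were lowest in rat 2. Klf1, an erythroid transcription factor, was at 0.0744, 0.117 and 0.110 FPKM. These sums were lowest in rat 1, as were Mcm3, Mcm6, Mcm7, Mki67 and Ccnb1. Not every marker followed its sum: Tfrc, on the erythroid list, was at 5.17, 4.76 and 5.03. The sums of sinusoidal endothelium (87.2, 83.2 and 80.2) and of stellate cells or fibroblasts (38.9, 26.5 and 36.6) were instead highest in rat 1. The part of these cell types in the differences between rats was not tested.

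As for the tissue itself, 8 of 9 hepatocyte markers with a rat row were at 10 FPKM or more, Tf and Ttr being the highest; the ninth, Alb, had no usable value in 2 of the 3 rats. No hepatocyte marker on the list had a naked mole rat row used here, so the label was not checked in that species. Of the other cell types, 8 of 10 Kupffer cell or macrophage markers reached 10 FPKM (C1qa at 96.4 and C1qc at 81.0 were highest, Marco and Adgre1 were listed at 0), as did 3 of 6 of sinusoidal endothelium (Fcgr2b 31.1, Lyve1 25.9). For stellate cells or fibroblasts it was 1 of 8 (Col3a1 17.6, then Col1a2 5.07) and for cholangiocytes 1 of 5 (Epcam 11.7, then Krt19 1.77). On the T or NK cell list the highest were Cd4 at 8.80 and Cd8a at 0.799, with Cd3e at only 0.374. The highest B cell markers were Cd79a at 1.19 and Cd79b at 0.259. Of neutrophils they were S100a8 at 3.38 and S100a9 at 3.30, and of erythroid cells Hbb at 54.4, 357 and 348 and Tfrc at a mean of 4.99.

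The rest of the replication pathway was read by role. Among 14 origin and loading genes with a rat row, 6 reached a mean of 1 FPKM (Orc5, Mcm7, Orc2, Mcm2, Mcm4 and Orc3). The subunits of the origin recognition complex are held in the rat tables under older symbols. Orc5 was at 5.37, 8.21 and 6.08 FPKM, Orc2 at 2.21, 3.30 and 3.22 and Orc3 at 1.16, 1.48 and 0.991. Orc6 was at 0.472, 0.413 and 0.271 and Orc1, which is cell cycle regulated, at 0.0209, 0.0439 and 0.0822, near the range of the mitotic genes. Cdt1, which brings the rings to the origin, was at 0.362, 0.481 and 0.618 FPKM, and its inhibitor Gmnn (geminin) at 0.794, 0.936 and 0.880. Cdc6, the loading ATPase, was at 0.230, 0.147 and 0.324. Each value of Cdt1, Gmnn and Cdc6 was below the lowest Mcm4 value. Orc4 was not matched.

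Of 14 genes of helicase activation, 6 reached 1 FPKM. Topbp1, a scaffold of origin firing and of checkpoint signalling, was highest at 3.04, 5.66 and 3.64 FPKM. Mcm10, an initiation factor outside the hexamer, followed at 4.06, 3.61 and 2.80 and Gins2, a GINS subunit, at 1.38, 1.38 and 1.63. Cdc7, the kinase that phosphorylates the MCM ring, was at 0.0546, 0.115 and 0.0358 and overlapped the range of the mitotic genes. Cdc45, held under an older symbol, was listed at 0 in each rat, which need not mean low expression, as for Chaf1a below. Of MCM relatives, Mcm8, of DNA repair, was at 0.262, 0.326 and 0.289, its partner Mcm9 at 1.83, 1.89 and 2.08 and the MCM binding protein Mcmbp at 8.27, 9.27 and 9.23.

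Genes of the replication fork were higher, 17 of 25 at 1 FPKM or more with a median of 2.82. Pold4, a small subunit of polymerase delta, was at 41.3 ± 10.2 FPKM (SD, n = 3) and Rpa3, of the single-strand binding complex, at 22.4 ± 1.08; Pcna was the third highest. Among those above 0.5 FPKM, Fen1, the flap nuclease, differed most between rats, at 1.70, 1.10 and 2.33. Many of these proteins also serve DNA repair. Chaf1a was listed at 0 in each rat, which need not mean low expression, since GPX1, an abundant liver gene, is also listed at 0. Of 7 genes of nucleotide supply, 5 reached 1 FPKM, among them Dut, which removes dUTP, at 8.93 ± 1.53 and Rrm2b, a ribonucleotide reductase subunit, at 2.65 ± 0.382. Rrm2, the S-phase subunit of ribonucleotide reductase, was at 0.0737, 0.0663 and 0.0932, in the range of the mitotic genes.

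The wider list of mitosis genes was low throughout. Of 34 with a rat row, 2 reached 1 FPKM and 17 were below 0.1, with a median of 0.0981. The highest were Aurka, a spindle kinase, at 1.17, 1.51 and 1.26 FPKM, Cdca8, of the chromosomal passenger complex, at 1.02, 1.07 and 1.55, and Mad2l1, of the spindle checkpoint, at 0.718, 0.878 and 0.903. The share at 1 FPKM was 5.88% for this list, 42.9% for the loading list and 68.0% for the fork list, beside 44.3% of all rat rows. Lists overlap with the 10 genes, and these shares are descriptions.

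The list of CDK inhibitors and growth arrest genes had a higher median, 12.1 FPKM, than that of G1 and S cyclins and CDKs, 1.01. Rat rows were found for 13 of 15 and 9 of 11 listed genes, and the median of 12.1 is the mean of Gadd45b. Of the 13 genes, 8 reached 10 FPKM. The rest were all under 1 FPKM: Cdkn1c, Cdkn2c, Cdkn2b, Cdkn3 and Cdkn2a had means of 0.713, 0.625, 0.435, 0.0539 and 0.0320. Btg1, an antiproliferative factor, was at 75.9 ± 13.8 FPKM (SD, n = 3) and Gadd45a, a stress-induced arrest gene, at 44.7 ± 5.96. Cdkn1a, which encodes the CDK inhibitor p21 and binds Pcna, was at 48.4, 42.5 and 7.92, low in rat 3 alone. Gadd45b was at 19.2, 2.99 and 14.2, low in rat 2 alone.

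Of 9 G1 and S cyclins and CDKs, 5 reached 1 FPKM. Ccnd1, the cyclin of G1 entry, was at 2.06, 4.28 and 6.81, lowest in rat 1, Cdk2 at 4.13 ± 1.01 and Cdc25a at 2.08 ± 0.324. Cdc25b was at 0.380, 1.84 and 1.72. Of 18 factors of the E2F, RB and DREAM group, 10 reached 1 FPKM, led by Rbbp4 at 13.1 ± 1.39, the RB relative Rbl2 (p130) of quiescent cells at 8.57 ± 1.51 and Lin37, a DREAM subunit, at 6.17, 9.18 and 5.66. Myc was at 2.91, 2.05 and 1.58. The activator E2f1 was at 0.222, 0.424 and 0.0993 and the mitotic factor Foxm1 at 0.419, 0.293 and 0.457, each below 0.5 in every rat.

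**Figure D4:**
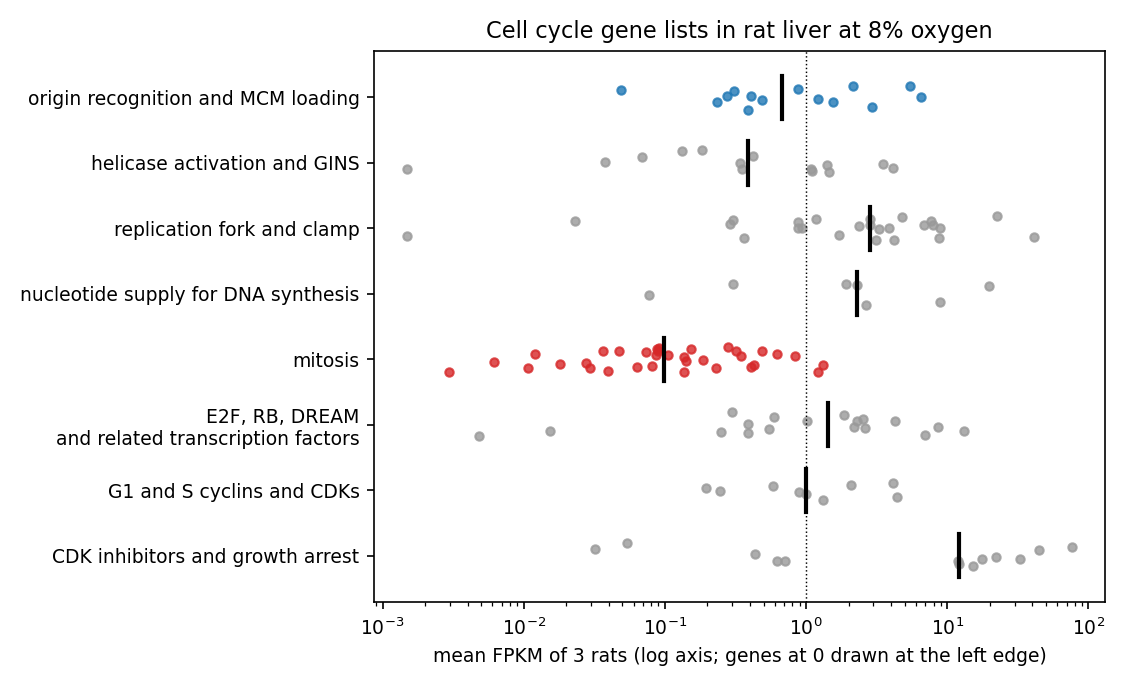
Mean FPKM over 3 rats on a log axis for each gene of 8 cell cycle lists, 1 point per gene, with a black bar at the list median and a dotted line at 1 FPKM. The loading list is blue and the mitosis list red; the mitosis median lies at 0.0981 and that of the growth arrest list at 12.1.

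MCM2 was the only one of the 10 genes that could be compared between the species, and it was higher in naked mole rat. As deposited, its FPKM was 6.91, 7.54 and 9.38 in naked mole rat 1, 2 and 3, and 2.07, 1.95 and 2.46 in the rats. After scaling the libraries to each other it was 7.10, 8.49 and 9.82 in naked mole rat (8.47 ± 1.36, SD, n = 3) and 2.08, 1.67 and 2.30 in rat (2.02 ± 0.318). Every naked mole rat library lay above every rat library. This was so for 39.6% of the 288 tested symbols, and for 48.9% of the 47 whose rows are of comparable span in both species.

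On the log2(scaled FPKM + 1) scale the difference was 1.64 ± 0.140 (SE), with a 95% confidence interval of 1.31 to 1.98, which is a 3.13-fold ratio of FPKM + 1 (limma adjusted p = 1.42e-05, over 288 symbols). With a pseudocount of 0.1 in place of 1 the ratio was 4.04-fold, and with libraries set to equal sums 5.32-fold. A symbol was called where limma's adjusted p was below 0.05 and the difference reached 1 on the log2 scale. This rule called 32.6% of tested symbols toward naked mole rat and 41% toward rat, so a call in itself does not set MCM2 apart. MCM2 ranked 68 of 288 by its difference.

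The scale between species matters for all symbols. The median log2 difference over tested symbols was -0.40, which puts MCM2 2.05 above it. With libraries set to equal sums the median was 0.55 and naked mole rat took 57.1% of the calls in place of 44.3%, and MCM2 stood 1.86 above the median. With FPKM as deposited the median was -0.62 and with quantile normalization 0.16, and MCM2 stood 2.11 and 1.95 above them. The excess over the median also moved with the symbols tested. It was 1.21, 1.28 and 1.34 without rat 2, rat 1 and rat 3, and 2.78, 2.63 and 2.59 without naked mole rat 1, 2 and 3. Among comparable spans it was 1.28.

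The deposited rows of MCM2 are alike in extent, 18389 bp on scaffold174 from 2388 to 20777 in naked mole rat and 14413 bp on chromosome 4 from 122977521 to 122991934 in rat, a ratio of 1.28. No source used here gives the builds of these coordinates. The naked mole rat row overlapped no other row. Among the 47 tested symbols whose rows span 0.5 to 2 times the rat row, MCM2 ranked 9, and 34% were called toward naked mole rat. Their median log2 difference was 0.36.

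A position within the library does not depend on the scale between species. MCM2 lay above 63.5%, 67.0% and 70.1% of the 288 tested symbols in naked mole rat 1, 2 and 3, and above 29.2%, 26.7% and 30.6% in rat 1, 2 and 3. That position does depend on rows listed at 0 in 1 species only. LDHA, GLUD1 and TPT1 were at 0 in every naked mole rat library, with scaled means of 1462, 449 and 996 in rat. Such rows lie below MCM2 in naked mole rat alone. GPX1 went the other way, at 0 in every rat and a scaled mean of 367 in naked mole rat. Each species was read with its own genome, annotation and alignment, and these cannot be told apart from species here. None of Mki67, Top2a and Ccnb1 had a naked mole rat row used here, so the licensing and mitotic classes were not compared in that species.

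The 3 symbols whose 6 values were most like those of MCM2 were PIGQ, RPUSD1 and LANCL2, by the root-mean-square difference in log2(scaled FPKM + 1). It was 0.23 for PIGQ, at 2.21 ± 0.101 in rat and 10.3 ± 0.952 in naked mole rat (scaled FPKM, SD, n = 3 each). It was 0.43 for RPUSD1 and 0.44 for LANCL2. The naked mole rat rows of PIGQ and RPUSD1 are more than 2 times as long as the rat rows, whereas that of LANCL2 is of comparable span.

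Of the longer lists, ORC2, ORC6, MAD2L1 and MCM9 also had naked mole rat rows. The tables of both species hold the first pair as ORC2L and ORC6L, and both were called toward naked mole rat. Scaled FPKM of ORC2L was 22.3, 23.7 and 22.6 in naked mole rat and 2.22, 2.83 and 3.004 in rat, a log2 difference of 2.70 ± 0.112 (SE, limma adjusted p = 2.07e-07). That of ORC6L was 9.20, 8.62 and 7.77 against 0.475, 0.354 and 0.253, a difference of 2.81 ± 0.104 (limma adjusted p = 1.12e-07). Their naked mole rat rows span 3200151 and 1183106 bp and each overlaps another row (HSPE1 and C16orf87), unlike that of MCM2. MAD2L1, of the spindle checkpoint, had 2 rows, 1 of which overlaps PPP4C, whose sum was 0.487, 0.0406 and 0 FPKM in naked mole rat 1, 2 and 3, against 0.718, 0.878 and 0.903 in rat, and fell under the limit for testing. MCM9 was not tested, because the rat tables hold it under another name.

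**Figure D5:**
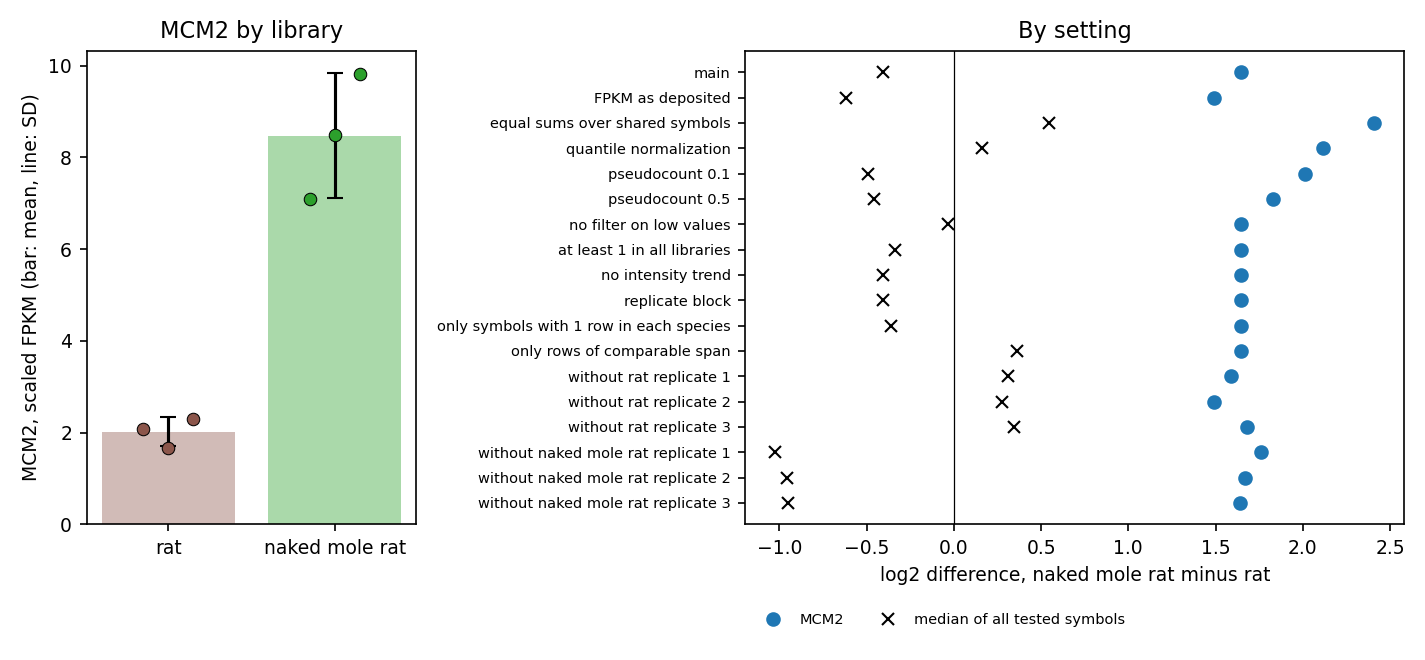
Left, scaled FPKM of MCM2 in 3 rat and 3 naked mole rat libraries (points), with the mean (bar) and SD (line). Right, the log2 difference of MCM2 (circles) and the median over all tested symbols (crosses) under each setting; MCM2 stays between 1.49 and 2.41 while the median lies between -1.02 and 0.55.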

How the data were processed

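The authors deposited a Cufflinks gene table per library with FPKM values, per the file headers, with confidence bounds and a status for each row. Per the submitters' processing notes, the tools included Cufflinks 2.1.1, TopHat2 2.0.9, Picard 1.137 and Bowtie2 2.1.0. The genome build and annotation were not given in the sources used here. FPKM carries no counts, so absolute depth is unknown. Values with the status HIDATA were treated as missing. Rat levels are FPKM as deposited.

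For the species contrast, symbols were matched ignoring case and rows of a symbol summed (388 shared). Libraries were scaled by the median ratio to the geometric mean over symbols above 0 in all 6 libraries (factors of 0.889 to 1.17). Symbols at 1 or more in at least 3 libraries were tested on log2(scaled FPKM + 1) with limma 3.58.1 in R 4.3.3, with an intensity trend, two-sided, with Benjamini-Hochberg adjustment over all tested symbols; the fit was tested on simulated data.

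List genes absent under their symbol were matched through older symbols in RefSeq (GRCr8), which added 10 of 150 pathway genes and 2 of 70 cell type markers to the 127 and 59 found directly. The genes named are the 10; in each pathway list, the 3 with the highest rat mean and, above 0.5 FPKM, the widest ratio between rats; the 2 highest of each cell type list; pathway genes with a naked mole rat row; and the 3 symbols most like MCM2. One gene that this rule names is not reported here. Cdc6, Cdt1, Gmnn, Orc1, Orc3, Cdc45, Nkg7, Adgre1, GPX1, Cdc7, Rrm2, Chaf1a, E2f1, Foxm1, Klf1, Elane, Ltf and Marco, and genes named for a promoter motif, were chosen after their values were seen. So were Cdkn1c, Cdkn2c, Cdkn2b, Cdkn3, Cdkn2a, LDHA, GLUD1 and TPT1. The 10 genes and the lists were chosen with earlier results of these data known. Alternatives covered scaling, pseudocount, filter, trend, replicate block, row span, thresholds, class members and leaving out each library.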

Additional observations from a re-analysis of the deposited data

Results flagged for a closer look

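MCM9, an MCM relative that works with MCM8 in DNA repair, had signal in naked mole rat rows outside the species test, which matched rows by identical symbols. It stood at 10.7, 12.7 and 9.25 FPKM in naked mole rat 1, 2 and 3, a mean of 10.9. The rat row, listed under an older name, was at 1.83, 1.89 and 2.08; the difference was not tested. The naked mole rat row spans 1980700 bp on scaffold402, from 9489817 to 11470517, and overlaps that of GPRC6A, so the 2 values need not be separate. FPKM gives no limit for a count of 0, and the row was singled out because it was above 0 in each library.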

How the results depend on the processing

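MCM2 was called higher in naked mole rat under all 17 alternatives, with a log2 difference of 1.49 to 2.41 and a limma adjusted p of 4.81e-07 to 0.000107; leaving out each library gave 1.49 to 1.76. Replicate numbers are shared between the species, the labels tie them to no animal, litter or day, and same-numbered libraries did not deviate together (Pearson's r of -0.036, -0.086 and -0.043 across 288 symbols, which are not independent). With the replicate block the difference stayed 1.64 (limma adjusted p = 4.86e-05), and 94 and 118 symbols were called as before. Requiring 1 in all libraries tested 151 symbols and called 38 higher in naked mole rat and 49 in rat; comparable spans alone gave 16 and 11 of 47. Leaving out each library gave 46 to 94 and 59 to 120 calls, since the limit of 3 libraries then passes fewer symbols (223 to 240 tested). Equal sums turned the balance to 125 and 94 calls, quantile normalization to 111 and 101. The licensing minus mitotic difference kept its sign: 2.38 with a pseudocount of 0.1, 3.30 with 0.01, 1.04 with means, 1.24 with Pcna added, 0.62 with the wider lists (0.45 with current symbols only, an alternative chosen after seeing the data), and 0.79 to 0.83 without each rat. The count of 4 genes at 1 FPKM was 4 without each rat (4 to 4) and 3 at 2 FPKM. Of 40 alternatives for the ratios between rats, 29 moved by less than the spread between rats and 11 by more.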
